A study of Rattus norvegicus with 20 samples.

Results

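Of 20 rat ovary arrays, 5 had a Cyp17a1 signal below the 75th percentile of their own array, and these 5 ovaries are described here across all genes. Levels are log2 signals relative to that percentile, so that 0 is a signal equal to it and 1 unit is a doubling. They were chosen by that measured value: every array with a Cyp17a1 level below 0 was taken. The 5 arrays were control replicate 3, 0.06 mg/kg/day replicate 1, 20 mg/kg/day replicates 2 and 5, and 60 mg/kg/day replicate 5, and their values are listed below in that order. They were compared with 13 other arrays. The remaining 2 arrays, control replicate 5 and 0.06 mg/kg/day replicate 2, were not compared because they stood apart in another gene, Akr1c3.

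The rats were female Sprague Dawley offspring killed on postnatal day 46, and RNA came from entire ovaries. Their dams had eaten a diet with 0, 0.75, 250 or 750 mg per kg of a brominated flame retardant mixture, from before mating to weaning on day 21. The mixture was made of polybrominated diphenyl ethers, with DE-71 at 52.1%, BDE-209 at 44.2% and DE-79 at 0.4%, and of hexabromocyclododecane at 3.3%. There were 5, 4, 5 and 6 arrays at the 4 rising doses, from independent litters, and groups are named by the dose in mg/kg/day that these diets were meant to give, 60 for the richest, 20 and 0.06 for the others and 0 for controls. The control group differs from the others in the mixture alone, and no dam's diet held it after weaning. Over the 20 arrays the 75th percentile of the signal was 1158 to 1737 and 74.8% to 83.4% of spots lay well above background.

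Cyp17a1 encodes the enzyme that turns progestogens into androgens in the theca, the outer cell layer of the follicle, and Lhcgr encodes the receptor of luteinising hormone. In the textbook account, the surge of luteinising hormone before ovulation lowers both transcripts, while genes of inflammation, matrix remodelling and prostaglandin synthesis rise briefly in the follicle. The follicle then becomes a corpus luteum, which makes progesterone. This is background only. The labels used here give no cycle stage and no hormone level.

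Cyp17a1 stood at -2.62, -2.63, -3.45, -3.49 and -3.52 on the 5 low arrays. On the 13 other arrays it ran from 2.05 over a median of 3.13 to 3.86. The array just inside the rule was therefore control replicate 3, and the one just outside it among those compared was 60 mg/kg/day replicate 6, with no compared array in the gap between them. The arrays not compared had Cyp17a1 at 2.69 and 1.71, and the one at 1.71 lies in that gap. The mean was -3.14 ± 0.47 (SD, n = 5) on the low arrays and 3.14 ± 0.44 (SD, n = 13) on the others. Since Cyp17a1 chose the arrays, this gap is a description and was not tested.

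Lhcgr, proposed together with Cyp17a1 as a marker of these ovaries, stood at -3.19, -3.10, -3.01, -3.36 and -3.63 on the low arrays. On the others it ran from -1.69 over a median of -1.21 to -0.74, so the sets did not overlap. On the arrays not compared it was higher than on any other array, at 1.32 and 2.10. The means were -3.26 ± 0.24 (SD, n = 5) and -1.24 ± 0.26 (SD, n = 13). Both markers were thus low on all 5 arrays, and no test is given for Lhcgr either. In whole ovaries, fewer cells of a type and less RNA per cell cannot be told apart.

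**Figure D1:**
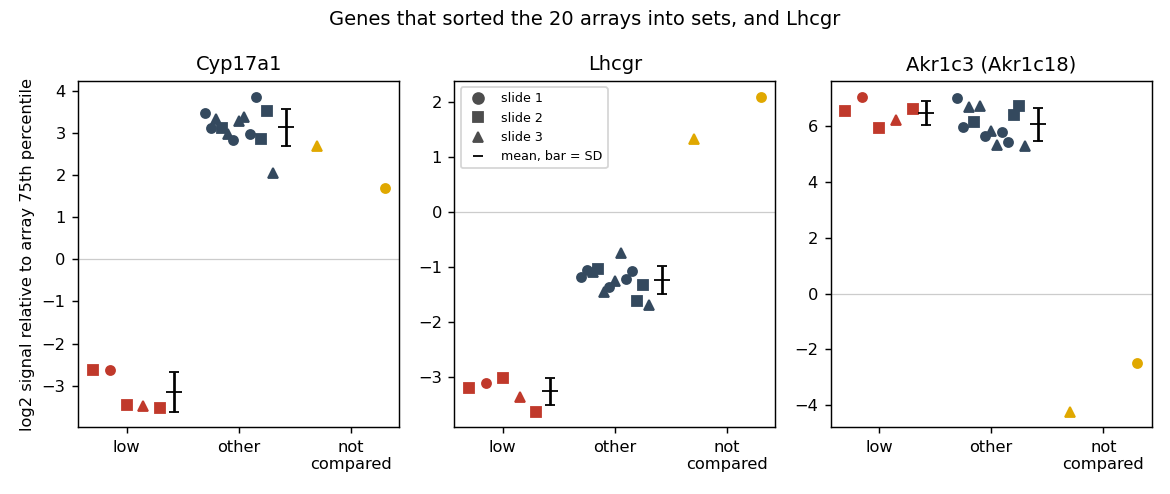
Log2 signal relative to the array's 75th percentile (vertical axis, separate scale per panel) of Cyp17a1, Lhcgr and Akr1c3 on each of the 20 arrays, in the 5 arrays low in Cyp17a1, the 13 others and the 2 not compared. Marker shape gives the slide, and the bar is the mean with its SD. The low arrays lie at -3.52 to -2.62 for Cyp17a1, and the arrays not compared lie at -4.23 and -2.48 for Akr1c3.

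Akr1c3, formerly named Akr1c18, encodes the enzyme that inactivates progesterone in the rat ovary. It stood at 5.94 to 7.05 on the low arrays and at 5.28 to 7.02 on the others, and the sets overlapped. The difference of +0.37 ± 0.27 log2 (SE) had an adjusted p of 0.404 in limma and was not called. On the arrays not compared it was -4.23 and -2.48.

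Low arrays came from every dose: 1 of 5 at 0, 1 of 4 at 0.06, 2 of 5 at 20 and 1 of 6 at 60 mg/kg/day. Fisher's exact test, 2-sided, gave p = 0.903 for dose over 20 arrays and 0.895 over the 18 compared. By slide, the glass carrier shared by several arrays, they were 1 of 7, 3 of 6 and 1 of 7. The same exact test gave p = 0.355 for slide, and 0.527 over 18 arrays. With 5 low arrays such a test can miss a sizeable imbalance. Dose and slide were terms of the fit for every gene below.

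The promoters of both a marker and a gene that was higher are shown first, as the 250 bases before the RefSeq start site of build GRCr8, 5′ to 3′ on the gene's strand. Cyp17a1 is named only. The first is Lhcgr, at chr6:11415165-11415414 on the plus strand, and the second is Vgf, at chr12:25277021-25277270 on the minus strand. Capitals mark TGACGTCA, the palindromic cAMP response element, at bases -90 to -83 from the start.
Lhcgr: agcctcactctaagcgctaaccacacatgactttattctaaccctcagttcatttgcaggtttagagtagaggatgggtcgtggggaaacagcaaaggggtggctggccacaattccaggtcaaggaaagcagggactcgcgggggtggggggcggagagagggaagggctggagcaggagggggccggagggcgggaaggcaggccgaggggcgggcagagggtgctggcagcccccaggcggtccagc
Vgf: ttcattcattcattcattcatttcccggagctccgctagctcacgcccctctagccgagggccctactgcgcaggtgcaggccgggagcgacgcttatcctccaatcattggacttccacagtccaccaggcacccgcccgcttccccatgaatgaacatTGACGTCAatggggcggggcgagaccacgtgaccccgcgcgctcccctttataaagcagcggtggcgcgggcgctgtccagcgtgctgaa

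TGACGTCA was searched in the 300-base window that also holds the 50 bases after the start; being palindromic, it reads the same on both strands. It was found in 296 of 10178 promoters of genes tested (2.91%), in 20 of 821 of genes called higher (2.44%) and in 11 of 639 of genes called lower (1.72%). Of the 15 genes with the largest rises, 10 had a promoter in the table, and Vgf alone held the motif. None of 12 matched promoters of the 15 largest falls held it. CAAGGTCA, the site of steroidogenic factor 1 searched on both strands, was in 90 (0.884%), 7 (0.853%) and 8 (1.25%) of the same sets. Its longer form TCAAGGTCA, which contains it, was in 21 (0.206%), 2 (0.244%) and 1 (0.156%). The shares among called genes were near or below those of all genes tested for TGACGTCA, and these matches are descriptions of letters only.

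Across the genome, limma called 3027 of 23256 probes (13.0%) at an adjusted p under 0.05, of which 1784 (7.67%) were higher and 1243 (5.34%) lower on the low arrays. At an unadjusted p under 0.05 there were 6402. Over genes, each read by its brightest probe, 1795 of 12450 (14.4%) were called, 1017 higher (8.17%) and 778 lower (6.25%). The tests ask whether a gene goes with the sorting by Cyp17a1 on these same arrays, not what an assigned condition does. Most called differences were small: the median size was 0.48 log2. There were 164 genes called higher and 133 called lower by at least 2-fold, and 34 and 24 by at least 4-fold. The median difference over all genes tested was -0.0017 log2, close to 0.

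On 504 genes (4.05%) all 5 low arrays lay above all 13 others, and on 276 (2.22%) all lay below. Of these, 717 were also called. The median SD over genes was 0.16 log2 among the low arrays and 0.23 among the others. The low arrays were thus close to each other on a typical gene. They came from 4 doses and 3 slides, but 3 of the 5 shared slide 2. These SDs were not adjusted for dose or slide.

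The counts rest unevenly on single arrays and on 1 slide. Without 0.06 mg/kg/day replicate 1, a low array, 679 probes were called higher and 383 lower. Without 20 mg/kg/day replicate 5 the counts were 1175 and 667, and without 60 mg/kg/day replicate 5 they were 1299 and 755. Without 0.06 mg/kg/day replicate 3, one of the 13 others, they were 1241 and 643. Slide 2 held 3 of the 5 low arrays, and without it 64 probes were called higher and 44 lower. Slide 2 alone, with 3 low and 3 other arrays and no dose term, gave 926 and 506. Of 149 called genes taken by the rules for naming, 81 were still called without 0.06 mg/kg/day replicate 1, 102 without 20 mg/kg/day replicate 5, 113 without 60 mg/kg/day replicate 5, 114 without 0.06 mg/kg/day replicate 3 and 26 without slide 2. For gene lists below, ranges in brackets, where given, are the calls when any 1 array was left out. Percentages after counts are shares of the measured members. They stand beside 8.17% called higher and 6.25% called lower over all genes.

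**Figure D2:**
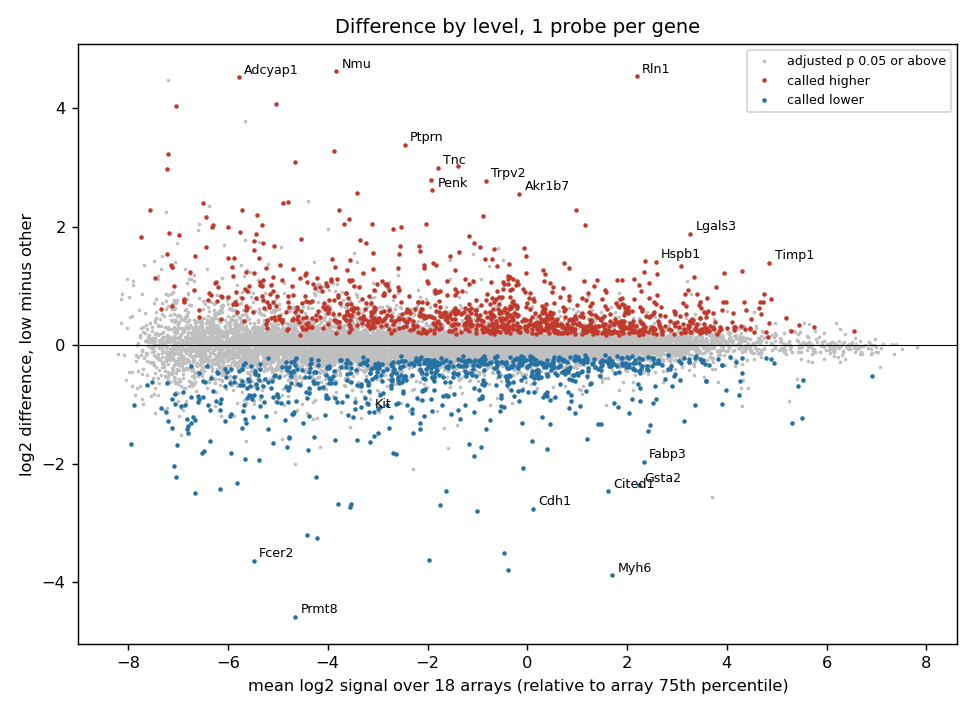
Log2 difference, low minus other arrays, against the mean log2 signal over 18 arrays, 1 probe per gene, with genes called higher in red, called lower in blue and the rest in grey. Of 12450 genes 1017 were called higher and 778 lower, at bright and dim signals alike. The highest point is Nmu at 4.63 and the lowest Prmt8 at -4.58, a gene mostly not detected on the low arrays.

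Rln1, Adcyap1, Nmu, Penk and Pnoc, which encode secreted peptides, were among the 15 largest rises. Rln1 encodes relaxin, a peptide hormone of the corpus luteum that loosens connective tissue. It stood at 4.83, 7.48, 5.09, 4.88 and 4.20 on the low arrays, against -0.995 over a median of 1.35 to 2.56 on the others. Every low array was above every other array, and 0.06 mg/kg/day replicate 1 was the highest. The difference was +4.54 ± 0.51 log2 (SE; 23.2-fold), with an adjusted p of 0.000165 in limma. Unlike the other 14 rises, relaxin was also at the level of the low arrays on both arrays not compared, at 5.68 and 7.12.

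Adcyap1 encodes PACAP, a neuropeptide that granulosa cells make around ovulation and that raises cAMP. It stood at -2.63, -2.76, -2.69, -2.02 and -2.34 on the low arrays and at -7.94 over -6.96 to -5.84 on the others, where it was well above background on 2 of 13. The fitted difference was +4.52 ± 0.29 log2 (SE; adjusted p 3.69e-06), but it rests on signals that were mostly not detected on the other arrays. With no array taken below its detection limit, the lowest signal it measured well above background, the means differed by 4.38. Nmu, encoding the neuropeptide neuromedin U, had the largest fitted rise, +4.63 ± 0.64 log2 (SE). Its levels were -0.54, 0.32, -0.38, -0.79 and -0.97 on the low arrays and -6.82 over -5.00 to -2.49 on the others. All low arrays were above all others.

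Penk, the precursor of the enkephalin opioid peptides, stood at 0.20, 0.08, 0.16, -0.18 and -0.26 on the low arrays and at -3.20 over -2.72 to -2.20 on the others. Its difference of +2.62 ± 0.16 log2 (SE; 6.15-fold) had the smallest adjusted p of the 15 rises, 2.51e-06. Pnoc, the precursor of the opioid-like peptide nociceptin, differed by +2.79. It was well above the others on each of the 5, but 0.06 mg/kg/day replicate 1 was the lowest at -0.94, and the remaining low arrays lay at 0.31 to 0.70.

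Ptprn, Chgb and Vgf encode proteins of secretory granules and were also among the 15. Ptprn, a membrane protein, stood at 0.92, 0.43, 0.21, 0.04 and 0.03 on the low arrays and at -5.14 over -3.51 to -1.89 on the others, a difference of +3.39 ± 0.49 log2 (SE). Chgb, encoding the granule protein secretogranin or chromogranin B, differed by +2.58 and did not overlap either. Vgf, a granule protein and the one whose promoter is printed above, differed by +3.10. On Vgf the sets overlapped, because 0.06 mg/kg/day replicate 1 was at -3.67 while the highest other array reached -3.16. Vgf was the only one of the 15 rises whose sets overlapped.

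Matrix, receptor and channel genes made up most of the remaining rises. Cthrc1, a secreted protein of connective tissue, stood at 0.76, 0.85, 0.94, 0.81 and 1.04 and thus differed little among the low arrays, against -3.23 over -2.09 to -1.64 on the others. Tnc, the matrix glycoprotein tenascin C, differed by +2.99, F2rl2, a receptor of the thrombin receptor family that was detected on 7 of the 13 others, by +4.06, and Trpv2, a cation channel, by +2.78. Asgr2, a subunit of the asialoglycoprotein receptor, differed by +3.27. Akr1b7, an aldose reductase that removes the aldehyde released by cholesterol side-chain cleavage, stood at 2.02, 1.79, 1.21, 2.10 and 2.19 against -3.28 over -0.94 to 0.51. Its difference was +2.55 ± 0.48 log2 (SE; adjusted p 0.00407), the largest p of the 15. Lao1, an amino acid oxidase, was not well above background on any other array and was at least 3.91-fold higher on the low arrays, the level against the detection limit of the dim arrays.

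Myh6, Myh7 and Myh8, which encode myosin heavy chains of striated muscle, were among the 15 largest falls. Myh6 stood at -1.08, 0.41, -0.67, -1.38 and -1.68 on the low arrays and at 0.48 over 2.60 to 3.73 on the others. The sets were adjacent but did not overlap. The difference was -3.88 ± 0.32 log2 (SE; adjusted p 1.69e-05). Myh7 differed by -3.80 and Myh8 by -3.62, again without overlap. The 3 genes belong to the same gene family, and whether their probes read each other's transcripts was not examined. They need not be 3 separate findings. Styxl2, a phosphatase-like protein of muscle, differed by -3.20 and was well above background on 2 of the 5 low arrays.

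Prmt8, an arginine methyltransferase, was at -9.10 to -6.71 on the low arrays, where it was well above background on 1 of 5, and at -5.04 over -3.42 to -2.53 on the others. The fitted difference was -4.58 ± 0.37 log2 (SE). With no array taken below its detection limit the means differed by -3.42, so the size of this fall is not settled. Both its probes moved the same way. Cdh1 encodes E-cadherin, which joins epithelial cells. It stood at -2.92, -1.38, -1.62, -1.27 and -2.22 against -0.73 over 0.88 to 1.94, a difference of -2.76 ± 0.38 log2 (SE; adjusted p 0.000693) with no overlap.

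Cited1, a transcriptional coregulator, stood at 0.32, -0.37, 0.03, 0.23 and -0.02 on the low arrays. The others ran from 0.07 over 2.53 to 3.27, so that the sets overlapped. The arrays not compared were above all of them, at 5.16 and 5.96. Miox, which breaks down inositol, differed by -3.51 with overlap and was likewise highest on the arrays not compared, at 3.00 and 5.20. Fcer2, an IgE receptor of B cells, was not well above background on any low array and was at least 5.14-fold lower there. Pla2g2d, a secreted phospholipase, Lhfpl5, a membrane protein of hair cells, Gpat2, an acyltransferase, and Cadps, which primes granules for release, differed by -2.80, -3.26, -2.68 and -2.67. Lhfpl5 was well above background on 3 of the 5 low arrays. C1h11orf86 differed by -2.73. Defb1, an antimicrobial defensin, differed by -2.69 ± 0.78 log2 (SE) with overlap and had the largest adjusted p of the 15 falls, 0.0379. In all, 10 of the 15 falls and 14 of the 15 rises did not overlap between the sets. These genes were picked for large differences between the same sets, so little overlap follows from the choice. Over all genes tested, the low arrays lay wholly above on 4.05% and wholly below on 2.22%.

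**Figure D3:**
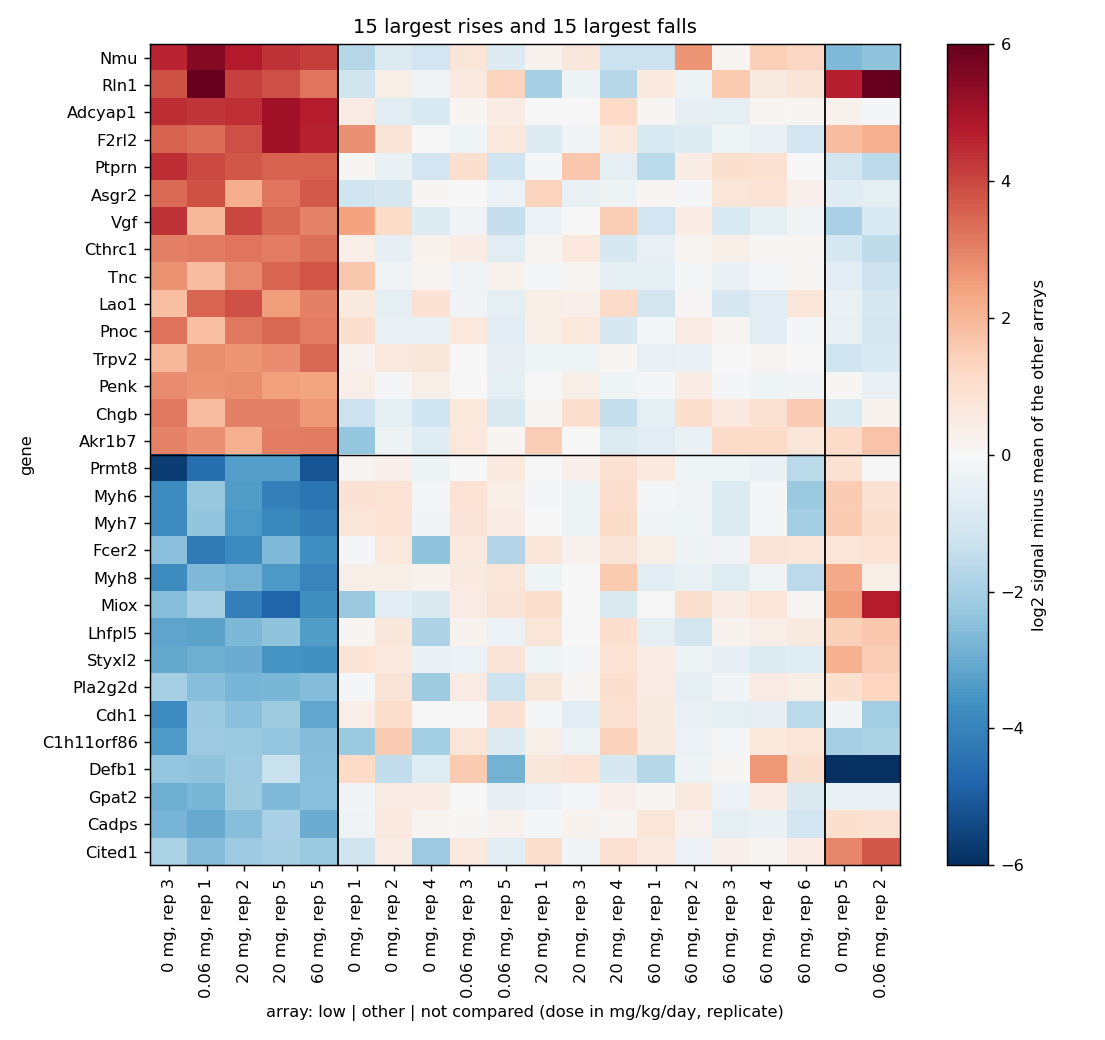
Log2 signal minus the mean of the 13 other arrays (colour scale, red higher and blue lower, with differences past 6 in either direction shown in the end colour) for the 15 largest rises and 15 largest falls (rows) on the 5 low, 13 other and 2 uncompared arrays (columns, dose in mg/kg/day and replicate). The 5 low columns are red in the upper 15 rows and blue in the lower 15. The last 2 columns are red in the Rln1 row like the low arrays.

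On the arrays not compared, relaxin alone of the 15 rises reached the range of the low arrays, on both. Among the 15 falls, Defb1 alone did so on both, at -8.84 and -9.07. These signals lie below the detection limits of those arrays, -7.35 and -7.02, and below all 5 low arrays. On control replicate 5, 10 of the 15 falls lay beyond the other arrays on the side away from the low arrays, and on 0.06 mg/kg/day replicate 2 this held for 7. On these 30 genes they did not reach the range of the low arrays, except on Rln1 and Defb1. With them among the other arrays, 1563 probes were called higher and 1010 lower.

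Next come the genes of steroid synthesis. Of 24 measured genes of a steroidogenesis list, 4 were called higher and none lower, against 8.17% and 6.25% of all genes tested, with a median of 0.02 log2 [1 to 4 higher, 0 to 1 lower, the fewest without 0.06 mg/kg/day replicate 1]. Srd5a1, the steroid 5-alpha reductase, stood at 0.65, 0.60, 0.78, 0.94 and 0.57 on the low arrays and at -3.15 over -1.59 to 0.25 on the others. It differed by +2.19 ± 0.44 log2 (SE; adjusted p 0.00558) without overlap. Hsd11b1, which activates glucocorticoids, differed by +1.12 and also did not overlap. The rest of the called genes were Srd5a3 at +0.40 and Tspo, a mitochondrial cholesterol-binding protein, at +0.37.

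The main enzymes of progesterone synthesis were not called. Star, which brings cholesterol into mitochondria, stood at 5.39 to 5.71 on the low arrays and at 4.38 over 5.18 to 5.55 on the others. The difference of +0.48 ± 0.18 log2 (SE) had an adjusted p of 0.0928. Cyp11a1, the side-chain cleavage enzyme, differed by -0.37 ± 0.12 (SE; adjusted p 0.0531), and Hsd3b1, which makes progesterone, by +0.01 ± 0.08. For Hsd3b1 the 95% interval of -0.16 to 0.19 leaves room for small changes only.

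Of 19 measured genes of a list of theca and androgen synthesis without both markers, 1 was called higher and 1 lower (5.26% each). The median was -0.12 log2 [0 to 2 and 0 to 2, with none without 0.06 mg/kg/day replicate 1]. The fall was Aldh1a1, a retinaldehyde dehydrogenase, at -1.14. The rise was Acta2, smooth muscle actin, at +0.63. Insl3, a peptide hormone of theca cells, stood at 1.58, 1.41, 1.64, 1.85 and 1.39 against 0.90 over 2.08 to 3.03. Its difference of -0.62 ± 0.23 log2 (SE) was not called, with an adjusted p of 0.0943. Nr5a1, steroidogenic factor 1, differed by -0.23 (adjusted p 0.338). Among the tested members of that list, none had a called difference larger than that of Aldh1a1.

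Of 18 genes of cholesterol uptake and transport, 6 were called higher (33.3%) and 1 lower (5.56%). The median was 0.14 log2 [3 to 7 and 0 to 1, with 3 higher without 0.06 mg/kg/day replicate 1 or without 20 mg/kg/day replicate 5]. Nr1h3, the sterol-sensing nuclear receptor LXR alpha, stood at 0.67, 0.44, 0.67, 0.51 and 0.86 against -0.67 over -0.30 to -0.05, a difference of +0.90 ± 0.11 log2 (SE) without overlap. Abca1, the cholesterol export pump that LXR controls, differed by +0.55. Stard4, a sterol carrier, was the called fall at -0.86. Of 22 genes of cholesterol synthesis, none was called higher and 1 lower (4.55%), Sqle at -0.91. Yet the list's median was -0.50 log2 and 1 member lay above 0. Within slides 1, 2 and 3 the list's median was 0.19, -0.63 and -0.76 log2. The low array on slide 1 was 0.06 mg/kg/day replicate 1. At an unadjusted p under 0.05, 11 of the 22 genes were lower. The count of calls depended on single arrays. Without 0.06 mg/kg/day replicate 1, 12 of the 22 were called lower, and on slide 2 alone 11 were. Without slide 2 none was called lower. Without 0.06 mg/kg/day replicate 5 or without control replicate 1 there were 4, without 0.06 mg/kg/day replicate 3, 20 mg/kg/day replicate 4, 60 mg/kg/day replicate 1 or 60 mg/kg/day replicate 6 there were 2, and without control replicate 3 or 20 mg/kg/day replicate 5 limma called none.

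On Sqle, squalene epoxidase, the low arrays stood at 1.93, 2.77, 1.90, 1.58 and 1.94 against 2.02 over 2.82 to 3.42. The array at 2.77, 0.06 mg/kg/day replicate 1, lay inside the other set.

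Of 38 measured genes known to respond to the surge of luteinising hormone in follicles, 5 were called higher (13.2%, against 8.17% of all genes) and 1 lower (2.63%, against 6.25%), with a median of 0.12 log2 [5 to 6 and 1 to 3, with 3 lower without 20 mg/kg/day replicate 4]. On slide 2 alone 8 were called higher, and without slide 2 there were 2. The log2 of the summed signal of the list was 7.498 to 7.64 on the low arrays and 6.73 to 7.51 on the others, so the ranges overlapped at their ends. Beside Adcyap1 these were Runx1, a transcription factor, Timp1, an inhibitor of matrix proteases, Plat, tissue plasminogen activator, and Ctsl, a lysosomal protease. Runx1 stood at 1.24, 0.92, 1.54, 1.02 and 1.30 against -0.31 over 0.05 to 0.40, a difference of +1.20 ± 0.12 log2 (SE; adjusted p 8.73e-05) without overlap. Timp1 stood at 5.99, 5.91, 6.14, 5.90 and 5.78 against 3.58 over 4.47 to 4.93, a difference of +1.40 ± 0.19. It was far lower on the arrays not compared, at 2.39 and 2.26.

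Ptx3, a matrix protein of the expanded cumulus around the oocyte, was the called fall. It stood at -0.56, -0.43, -0.85, -0.28 and -1.27 against 0.09 over 0.50 to 1.26, a difference of -1.20 ± 0.22 log2 (SE) without overlap. Ereg, an EGF-like factor, differed by +1.41 ± 0.58 (adjusted p 0.133), Areg, its relative, by -1.13 ± 0.80 (adjusted p 0.401) and Tnfaip6, a hyaluronan-linking protein, by +0.56 ± 0.18 (adjusted p 0.0577). None of these was called. Areg ran from -5.76 to -3.98 on the low arrays, while it reached -0.25 on 1 of the others. Pgr, Ptgs2, Btc and Has2 were not well above background on 4 or more arrays and were not tested. On the cumulus list Ptx3 was the single call among 11 (9.09%).

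Of 33 genes of luteinisation and the corpus luteum, 4 were called higher (12.1%, against 8.17% of all genes) and 3 lower (9.09%, against 6.25%). The list's median was 0.08 log2 [3 to 5 and 2 to 5]. The rises were Rln1, Timp1, Parm1 at +0.73 and Socs3, a feedback inhibitor of cytokine signalling, at +0.35. The falls were Mt1, a metallothionein, at -0.52, Gja1, a gap junction protein, at -0.52 and Sgk1, a kinase, at -0.34. Prlr, the prolactin receptor, differed by -0.41 ± 0.13 log2 (SE; adjusted p 0.0531), and Ptgfr, the receptor that ends luteal life, by +0.06 ± 0.33. Neither was called. Sfrp4, a Wnt inhibitor, differed by +1.45 ± 0.54 (adjusted p 0.0988).

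Of 28 genes of granulosa cells in growing follicles 4 were called lower (14.3%) and 1 higher (3.57%). The median was -0.14 log2 [0 to 5 lower and 0 to 2 higher, with none without 0.06 mg/kg/day replicate 1 and 1 lower without 20 mg/kg/day replicate 5 or 60 mg/kg/day replicate 5]. Amh, the hormone of small growing follicles, stood at 0.78, -0.12, 0.09, -0.24 and 0.04 on the low arrays and at 0.30 over 1.21 to 1.87 on the others. The difference was -0.84 ± 0.22 log2 (SE; adjusted p 0.0242), with overlap through control replicate 3. Fshr, the receptor of follicle-stimulating hormone, differed by -0.46 ± 0.14 and Serpine2, a protease inhibitor, by -0.60. Fst, follistatin, which binds activin, stood at 2.86, 3.14, 3.51, 3.11 and 3.00 against 2.10 over 2.50 to 2.97 and was higher by 0.64 ± 0.15.

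The inhibin subunits were not called. Inha differed by -0.12 ± 0.10 log2 (SE), Inhba by -0.35 ± 0.27 and Inhbb by -0.01 ± 0.15. On the list of inhibins, activins and follistatins, 3 of 13 (23.1%) were called higher, Fst, Fstl3 at +0.98 and the co-receptor Tgfbr3 at +0.47 [1 to 3, with 1 without 0.06 mg/kg/day replicate 1]. The oestrogen receptors Esr1 and Esr2 differed by less than 0.01 in the fit, but the slides went opposite ways. Within slides 1, 2 and 3 Esr1 differed by 0.46, -0.37 and 0.57 log2, and Esr2 by -0.56, 0.36 and -0.24. Of 24 oocyte genes Kit alone (4.17%) was called, at -1.12 ± 0.20 [none without 0.06 mg/kg/day replicate 1]. Kit encodes the receptor of Kit ligand, is also a mast cell gene, and stood at -3.50, -4.06, -4.06, -4.13 and -4.49 against -3.58 over -2.75 to -1.84. Gdf9 differed by -0.06 and Zp3 by -0.09. None of 30 cell cycle genes was called by limma, with 1 lower at an unadjusted p under 0.05, and their median was -0.04 log2.

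**Figure D4:**
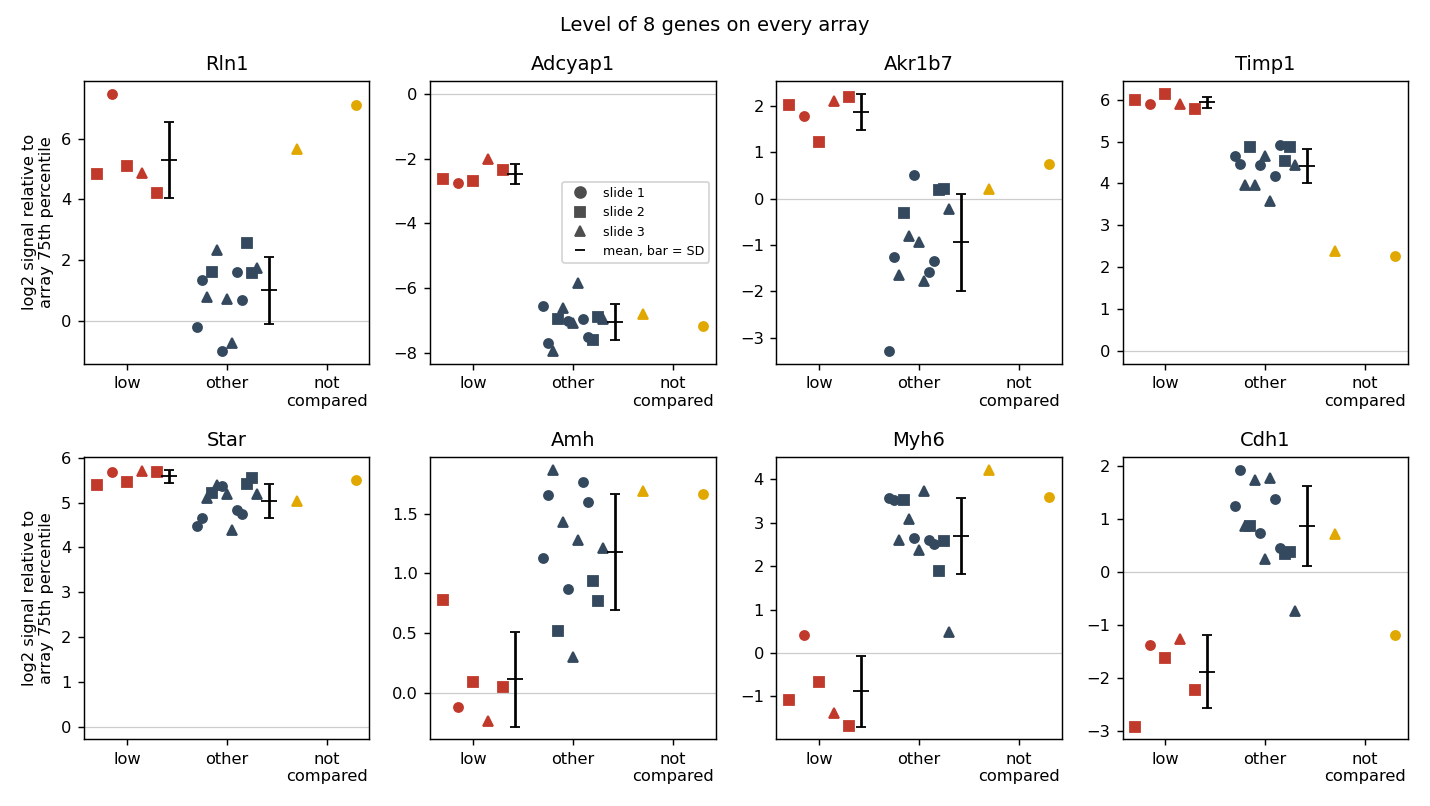
Log2 signal relative to the array's 75th percentile (vertical axis, separate scale per panel) of 8 genes on every array, in the low, other and uncompared arrays, with slide as marker shape and the mean and SD as a bar. Rln1, Adcyap1, Akr1b7 and Timp1 lie above all other arrays on the 5 low arrays, and Myh6 and Cdh1 lie below. Star and Amh overlap between the sets.

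Matrix genes were called in both directions. Of 27 proteases and inhibitors 7 were called higher (25.9%) and 4 lower (14.8%). The median was 0.20 log2 [4 to 9 and 1 to 4, with 4 and 1 without 0.06 mg/kg/day replicate 1]. Mmp2, gelatinase A, stood at 3.79, 3.12, 3.67, 3.21 and 3.76 against 1.36 over 2.01 to 2.32. The difference was +1.43 ± 0.15 log2 (SE; adjusted p 8.4e-05), without overlap. Mmp19 at +0.93, Mmp23 at +0.47 and Adamts9 at +0.42 were also higher, while Mmp16 at -0.79, Mmp11 at -0.62 and Adamts5, which cleaves proteoglycans, at -1.15 were lower. Of 23 matrix components 7 were called higher (30.4%) and 1 lower (4.35%) [3 to 8 and 0 to 1, with 3 higher without 20 mg/kg/day replicate 5 and 4 without 0.06 mg/kg/day replicate 1]. Besides Tnc these were led by Col18a1 at +1.02, Thbs2 at +0.84 and Eln, elastin, at +0.76. Lamb2, a laminin chain, was lower by 0.35.

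In prostaglandin metabolism 2 of 19 genes were called higher and 2 lower (10.5% each, against 8.17% and 6.25% of all genes) [1 to 2 and 0 to 3]. Hpgd, which inactivates prostaglandins, differed by -1.33 ± 0.30 log2 (SE) and Akr1b1, which can make prostaglandin F2 alpha, by -0.71. Cbr1, a carbonyl reductase, differed by +0.87 and Ptgis, prostacyclin synthase, by +0.58. Among 27 cAMP signalling genes 1 was called higher (3.7%) and 3 lower (11.1%) [1 to 2 and 0 to 5, with none lower without 0.06 mg/kg/day replicate 1 or 3]. Prkaca, a catalytic subunit of protein kinase A, was the rise at +0.74, and Prkar2b, a regulatory subunit, was at -0.59.

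Of 27 glycolysis and hypoxia genes 8 were called higher (29.6%) and none lower. The median was 0.12 log2 [2 to 12 and none, with 2 without 0.06 mg/kg/day replicate 1, 3 without 60 mg/kg/day replicate 5, 4 without 20 mg/kg/day replicate 5 and 5 without 0.06 mg/kg/day replicate 3]. Gapdh stood at 4.83, 4.93, 4.79, 4.80 and 4.95 against 3.87 over 4.24 to 4.47, a difference of +0.60 ± 0.10 log2 (SE) without overlap. Ldha, lactate dehydrogenase A, differed by +0.63, Eno1 by +0.47 and Pkm, pyruvate kinase, by +0.39. Bnip3, a hypoxia gene, differed by +0.79. Vegfa, on the same list, was not called, at 0.24, -0.12 and -0.14 within slides 1, 2 and 3.

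Of 29 genes of the TGF-beta and BMP list 2 were called higher and 2 lower (6.9% each) [2 higher and 0 to 2 lower, with none lower without 0.06 mg/kg/day replicate 1]. Bmp7 differed by +1.62 ± 0.20 log2 (SE) without overlap, Tgfb3 by +0.59, Tgfb2 by -1.05 and Bmpr1b by -0.46. Igf1 was higher by 0.60 and Igfbp4, a binding protein, by 0.79. Among 24 Wnt genes Sfrp1, Fzd1 and Wnt4 were higher (12.5%), at +0.83, +0.50 and +0.69. Ccn2, connective tissue growth factor, stood at 0.22, -0.25, 0.11, 0.23 and -0.50 against 1.00 over 1.69 to 2.70. It was lower by 1.58 ± 0.23 and was the single call among 26 immediate early genes (3.85%). In a set of 52 genes of ovarian function and exposure, 45 were measured. Of the 43 besides both markers, 3 were called higher (6.98%) and 4 lower (9.30%), shares near the 8.17% and 6.25% of all genes.

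Some further genes, picked after their values were seen, set the low arrays apart as cleanly. Gsta2, a glutathione transferase, stood at 0.24, 0.55, 1.16, 1.08 and 0.40 against 2.12 over 2.85 to 3.54, a difference of -2.36 ± 0.17 log2 (SE). Fabp3, a fatty acid carrier, differed by -1.96 ± 0.14 and Ephx1, epoxide hydrolase, by -2.06 ± 0.19. Lgals3, galectin 3, stood at 4.53, 4.04, 4.62, 4.69 and 5.25 against 2.26 over 2.61 to 3.29 and was higher by 1.88 ± 0.18. Acot1 and Cpt1b, enzymes of fatty acid metabolism, were higher by 2.03 and 1.37, and Fbp2, a gluconeogenic enzyme, by 2.28. None of these overlapped between the sets, but they were picked with their values known, so this follows from the choice. Over all genes tested, the low arrays lay wholly above the others on 4.05% and wholly below on 2.22%.

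Some markers of other cell types were called as well. Of 13 smooth muscle genes 7 were called higher (53.8%, against 8.17% of all genes) and none lower, with a median of 0.61 log2 [3 to 9 and none, with 3 without 0.06 mg/kg/day replicate 1]. Actg2, enteric actin, differed by +1.24, Tpm2, a tropomyosin, by +1.10 and Des, desmin, by +0.82. The log2 of the summed signal of the list was 5.66 to 5.91 on the low arrays and 4.71 to 5.42 on the others, and 5.06 to 5.56 on the arrays not compared. Their part in the other results was not tested. Of 11 genes of the ovarian surface epithelium and mesothelium 3 were called higher (27.3%) and none lower [0 to 5 and none, with 0 without 20 mg/kg/day replicate 5], with summed levels of 2.00 to 2.88 against 1.17 to 2.37. These were Krt8, a keratin, at +1.10, Upk1b at +1.09 and Aldh1a2 at +0.71. Of 20 oviduct epithelium genes 2 were called higher, a share of 10.0% that is near the 8.17% of all genes, and Cdh1 lower [0 to 5 and 1, with 0 higher without 0.06 mg/kg/day replicate 1 or 20 mg/kg/day replicate 5 and 5 without control replicate 3]. Their summed levels were 2.03 to 3.13 against 1.92 to 3.39.

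Of 17 genes of T, B and NK cells 3 were called lower (17.6%) and none higher [0 to 5 and none, with 0 without 0.06 mg/kg/day replicate 1 and 5 without 20 mg/kg/day replicate 3]. Summed levels were 0.22 to 0.62 against 0.26 to 1.24. Gzma, a granzyme of cytotoxic lymphocytes, stood at -4.39, -4.51, -5.01, -4.40 and -4.72 against -4.43 over -4.03 to -3.16, with overlap. It was lower by 0.71 ± 0.17 log2 (SE). Among 21 macrophage genes Adgre1 was called lower, by 1.08, and Msr1 higher, by 0.91 (adjusted p 0.0447 in limma), a share of 4.76% each way. Summed levels were 5.47 to 6.10 against 4.95 to 6.01 [0 to 3 higher and 1 to 2 lower]. The higher count was 0 in 15 of the 18 runs that left out 1 array and on slide 2 alone, and 3 without 20 mg/kg/day replicate 1. Msr1, a scavenger receptor, was lower rather than higher on the low array within slide 1, by -0.36, and within the 0.06 mg/kg/day dose, by -0.47. Of 16 granulocyte and mast cell genes Lcn2 was higher by 0.82 and Kit lower, 6.25% each way [0 to 2 and 0 to 1, with none either way without 0.06 mg/kg/day replicate 1]. Of 27 genes of endothelium and angiogenesis 4 were lower (14.8%) and none higher [0 to 5 and 0 to 1, with none without 0.06 mg/kg/day replicate 1]. The falls were led by Ednrb, an endothelin receptor, at -0.95. Summed levels of this list were 4.53 to 4.84 against 4.48 to 5.00.

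The remaining lists are small, and their counts stand beside 8.17% called higher and 6.25% lower over all genes. Of 15 adipocyte genes 2 were higher (13.3%), with Fabp4 at +1.66, and 1 lower (6.67%), Pparg [0 to 3 and 0 to 1, with none without 0.06 mg/kg/day replicate 1]. Within slides 1, 2 and 3 Pparg differed by -0.74, -0.30 and -0.50. The list's median was 0.03 log2, and its summed levels were 2.85 to 3.74 against 3.07 to 3.78. Of 12 genes of nerve and glia 2 were higher (16.7%), Nefh, a neurofilament subunit, by 2.28 ± 0.19 log2 (SE) and Prph, another neuronal filament, by 1.06, at 2.93 to 3.08 against 2.56 to 3.11. Limma called none of 8 erythrocyte genes, with 0 at an unadjusted p under 0.05, at 6.40 to 6.96 against 6.00 to 7.62. Of 9 platelet genes 1 was called lower (11.1%). Summed levels of the platelet list were -0.23 to 1.17 on the low arrays against -0.21 to 0.35 on the others. On a list of stress and RNA quality, 3 of 21 were higher (14.3%) [2 to 4], at 9.02 to 9.23 against 8.79 to 9.16. Hspb1, a small heat shock protein, led them at 3.86, 3.53, 3.27, 3.43 and 3.84 against 1.85 over 2.23 to 2.43. It was higher by 1.41 ± 0.10 (adjusted p 5.24e-06). For none of these lists was a part in the other results tested.

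**Figure D5:**
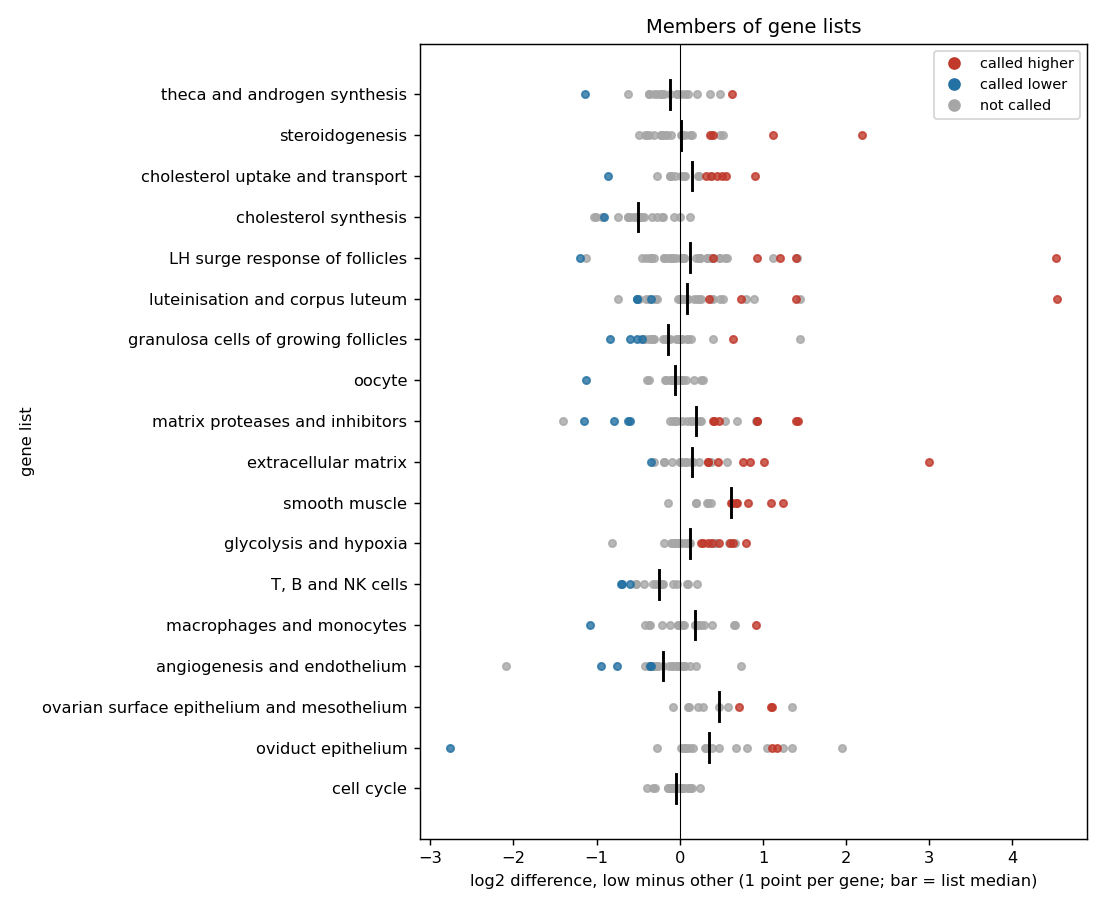
Log2 difference, low minus other arrays, of every measured member (1 point per gene) of 18 gene lists, with members called higher in red, called lower in blue and not called in grey, and the list median as a bar. The smooth muscle median lies at 0.61 and the cholesterol synthesis median at -0.50, while cell cycle genes lie near 0 with no call.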

How the data were processed

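Ovarian RNA (100 ng, labelled with Cy3 per the labels' protocols) of 20 rats was measured on 1-colour Agilent arrays, and the labelled dose gave the groups. Per the file headers, spots were read with Feature Extraction 11.5.1.1, and the processed signal is a linear intensity after background correction. A deposited series table gives log2 values by the authors for these arrays; its column medians ran from -0.072 to 0.082, and how it was centred or normalized is not given in the sources used here. According to the deposited flags, the other columns say which spots were outliers, saturated or well above background. Replicate 4 at 0.06 mg/kg/day, which the labels call an outlier, was not analysed here.

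The log2 processed signal was centred on each array's 75th percentile over 58717 non-control spots of 62976 and averaged per probe without outlier spots. Of 30367 probes, 32 had no usable spot on some array and 23258 were well above background on at least 4 of 20 arrays. Accessions were matched without version to RefSeq genes of GRCr8, which named 14858 of these, with 12452 symbols. No spot was saturated, and the precision is limited by the number of arrays.

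limma 3.58.1 in R 4.3.3 fitted set, dose and slide to 18 arrays (11 residual degrees of freedom, median residual SD 0.19 log2), with Benjamini-Hochberg adjustment at 0.05 over all probes kept. Differences are low minus other arrays. Cyp17a1 and Lhcgr were left out of the counts. Where a whole set was not well above background, the fold is a bound: each dim array enters with the probe's signal or the array's lowest detected signal, whichever is higher. Each gene was read by its brightest probe. Named were the 15 largest rises and 15 largest falls among called genes that had a regular symbol and were well above background throughout at least 1 set, 52 genes of ovarian function or exposure whatever their values, and called members of 38 gene lists; other genes were picked after their values were seen. The members and the lists were chosen with earlier results of these data known. Lists carry counts and medians, no test; a few genes are not reported here and are in no list. The fit was checked on simulated data. Alternatives changed normalization, background correction, filter, terms, arrays and replicate block. The signal column planned for normexp was not in the files, so the median spot signal took its place. Python 3.11.15 with matplotlib 3.10.9 drew the figures.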

Additional observations from a re-analysis of the deposited data

Results flagged for a closer look

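Among the 5 low arrays, 75 genes were screened for an array set off from the remaining 4, by a gap over 0.71 of the whole range, which chance passes in about 1 of 20 such groups. Such a gap was found for 5 genes, and at that rate a few of the 75 would show one by chance. On 0.06 mg/kg/day replicate 1, Rln1 was high at 7.48 (the remaining low arrays 4.20 to 5.09) and Pnoc low at -0.94 (0.31 to 0.70). On control replicate 3, Pla2g2d was high at -2.31 (-3.09 to -2.88) and Esr2 high at -3.02 (-4.34 to -4.05). On 20 mg/kg/day replicate 5, Mki67 was low at 0.61 (0.84 to 0.93).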

How the results depend on the processing

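The counts of called probes, 1784 higher and 1243 lower, stayed within 1.5 times under quantile normalization, normexp, the deposited table, other filters on dim probes, other treatments of dose and slide, all 20 arrays, a spike-in term and a variance prior with trend. Array weights in limma gave 2720 higher and 2290 lower. Leaving out 1 array gave 679 to 1956 higher and 383 to 1489 lower; without slide 2 they were 64 and 44, and on slide 2 alone, with no dose term, 926 and 506. The runs without slide 2 and on it alone were chosen after seeing the data. With the replicate number as a block, 476 were higher and 272 lower, of which 694 were also called without it. The litters are independent, so the numbers name no known pairs. Over 21 pairs of the same number the median correlation of residuals was -0.056, against -0.047 for other pairs. These residuals were taken after slide was fitted, and the numbers largely follow the slides. The check therefore cannot decide whether arrays of the same number vary together. Beyond fewer degrees of freedom, causes were not tested. Of the 30 named genes 25 were called with the block and 12 without slide 2. Depth has no part on arrays; probes near background limit the folds.

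Reversals occurred in genes that were not called. Their differences with all terms were -1.13 for Areg, 0.54 for Adamts1, -0.49 for Hsd17b7, 0.40 for Rgs2 and 0.37 for Akr1c3, and -0.16 (Fdx1) to 0.11 (Per1) for the rest. With the replicate block Ptgfr was -0.15, Rgs2 -0.21, Vegfa -0.036, Esr2 0.060, Gdf9 0.086 and Mki67 0.069. On slide 2 alone Hsd3b1 was -0.059, Akr1c3 -0.051, Ptgfr -0.48, Esr1 -0.37, Vegfa -0.12, Inhbb 0.17, Esr2 0.36, Areg 0.37, Kitlg 0.035, Gdf9 0.12 and Nr4a1 0.12. Without slide 2 Adamts1 was -0.045, Ccnd2 -0.096 and Hsd17b7 0.063. With the spike-in term Ptgfr was -0.13, Rgs2 -0.081, Ccnd2 -0.071, Per1 -0.0069, Fdx1 0.021, Gdf9 0.15 and Zp3 0.087. With neither dose nor slide Inhbb was 0.018, Kitlg 0.015, Vegfa -0.0044 and Ccnd2 -0.028. Without the slide term Inhbb was 0.027, Kitlg 0.017 and Per1 -0.019, and with slide as a random block Inhbb was 0.011. With all 20 arrays Inhbb was 0.013, Esr1 -0.028 and Vegfa -0.071, and with normexp Inhbb was 0.0072, Esr1 -0.048 and Per1 -0.017. Vegfa was -0.045 with quantile normalization, -0.028 without the dose term and -0.0011 with array weights, and Hsd3b1 was -0.00034 in the deposited table. Leaving out 1 array gave ranges of -0.087 to 0.051 for Hsd3b1, -0.29 to 0.23 for Ptgfr, -0.12 to 0.12 for Inhbb, -0.14 to 0.27 for Esr1, -0.20 to 0.14 for Esr2, -0.21 to 0.12 for Vegfa, -0.17 to 0.21 for Gdf9, -0.19 to 0.075 for Zp3, -0.036 to 0.14 for Ccnd2 and -0.56 to 0.15 for Nr4a1. The cause of these was not tested.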

Other observations

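The low arrays were not alike on every gene. The genes below had the widest spread among them and were chosen for it, so no test is given. Hsd3b3, a relative of the progesterone-making enzyme Hsd3b1, stood at 5.26, 5.60, 5.94 and 4.61 on 4 of them and at -3.23 on 0.06 mg/kg/day replicate 1. The 13 other arrays ran from -3.77 to 6.09 on this probe. Serpinc1, antithrombin, stood at 1.66, 3.25 and 1.76 on control replicate 3, 0.06 mg/kg/day replicate 1 and 20 mg/kg/day replicate 2, and at -3.90 and -4.56 on 20 mg/kg/day replicate 5 and 60 mg/kg/day replicate 5. The others ran from -4.28 to 2.78. Avp, the hormone vasopressin, stood at 0.21 and 0.05 on 20 mg/kg/day replicates 2 and 5. On the remaining 3 low arrays it stood at -3.31 to -2.92. None of the 13 other arrays was above -0.85, including those at 20 mg/kg/day.

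Markers of other cell types also varied within the low set. Adipoq, the fat cell hormone adiponectin, ran from -3.90 on 20 mg/kg/day replicate 5 to 0.17 on 0.06 mg/kg/day replicate 1, and Retn, another fat cell hormone, from -3.78 to -0.30 on the same arrays. Cldn3, a tight junction protein of epithelia, ran from -5.24 on control replicate 3 to -1.36 on 20 mg/kg/day replicate 5. The other arrays covered similar ranges, -2.92 to -0.06 for Adipoq, -3.64 to -0.55 for Retn and -6.58 to -0.29 for Cldn3.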
